A study of Homo sapiens with 16 samples.

Results

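The comparison asks how the transcripts of prostate cancer cells that lack p53 differ from those of cells that have it while the kinase GCN2 is inhibited. It sets p53 KO LNCaP cells given GCN2iB against WT LNCaP cells given GCN2iB, 4 libraries of each, chosen by their labels, so 8 of the 16 libraries of the series. The other 8 libraries, 4 of p53 KO and 4 of WT cells given vehicle (DMSO), give the same genotype comparison without the inhibitor. LNCaP cells come from a human prostate cancer and depend on androgen signalling, and CRISPR was used to make the p53 KO cells from them. Wells held 350000 cells at plating, and GCN2iB was given at 5 µM for 48 h. Total RNA was sequenced in paired ends. Whether the knockout cells were 1 clone or many is not stated in the labels, and features of a clone cannot be told apart from those of the knockout. Nor do they state that the 4 libraries of a group came from different cultures, so p-values reflect the spread from library to library, which may be technical only.

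The transcription factor p53 switches on genes that halt the cell cycle, repair DNA, trigger cell death and restrain growth signalling, and CDKN1A, which encodes the cyclin-dependent kinase inhibitor p21, is its best known target. GCN2, the product of EIF2AK4, senses uncharged transfer RNA when amino acids run short and phosphorylates the translation factor eIF2. Phosphorylated eIF2 favours translation of ATF4, a transcription factor for amino acid transporters, aminoacyl-tRNA synthetases, asparagine and serine synthesis and stress genes. GCN2iB blocks the kinase. Some genes, SESN2 among them, are known targets of both p53 and ATF4.

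Library totals of the 8 GCN2iB libraries ran from 17418072 to 39671776 counts, and the smallest was p53 KO GCN2iB 3. Levels are given as CPM, read counts scaled to a common library size after TMM normalization, which do not correct for gene length, so that levels of different genes are not compared. LNCaP identity was checked with its luminal markers: KLK3, which encodes prostate-specific antigen, averaged 1360.4 ± 115 CPM in p53 KO GCN2iB and 1505 ± 50.2 CPM in WT GCN2iB (SD, n = 4 each). The summed level of 19 luminal markers was 7065 to 7553 CPM in p53 KO GCN2iB and 7513 to 7572 CPM in WT GCN2iB. Of 18 immune and blood cell markers 17 averaged under 1 CPM, and CD3D, MS4A1 and HBA2 had no count in any of the 8 libraries.

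WT GCN2iB 4 stood apart from the other WT GCN2iB libraries, and the main counts and the values it moves most are also given without it. On principal component 1 of the 1000 most variable genes it lay at -12.9, against -24.3 to -23.1 for the other WT GCN2iB libraries, while the p53 KO GCN2iB libraries lay at 20.6 to 23.8. Genes with at least a 4-fold genotype difference in the vehicle libraries alone gave a second measure. Over the 9 of them higher in p53 KO vehicle, WT GCN2iB 4 covered 43.7% of the log2 distance from its own group to p53 KO GCN2iB (median), and over the 21 lower there it covered 10.6%. On the CPM scale, which was added after the data were seen, these shares were 24.3% and 21%. The 4 p53 KO GCN2iB libraries covered -6.40% to 0.537% and -4.78% to 0.521% on the log2 scale. The WT GCN2iB libraries 1 to 3 lay at negative values (-18.4% to -8.91% and -8.63% to -2.37%), each set against a group that held WT GCN2iB 4. What made this library differ was not tested.

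**Figure D1:**
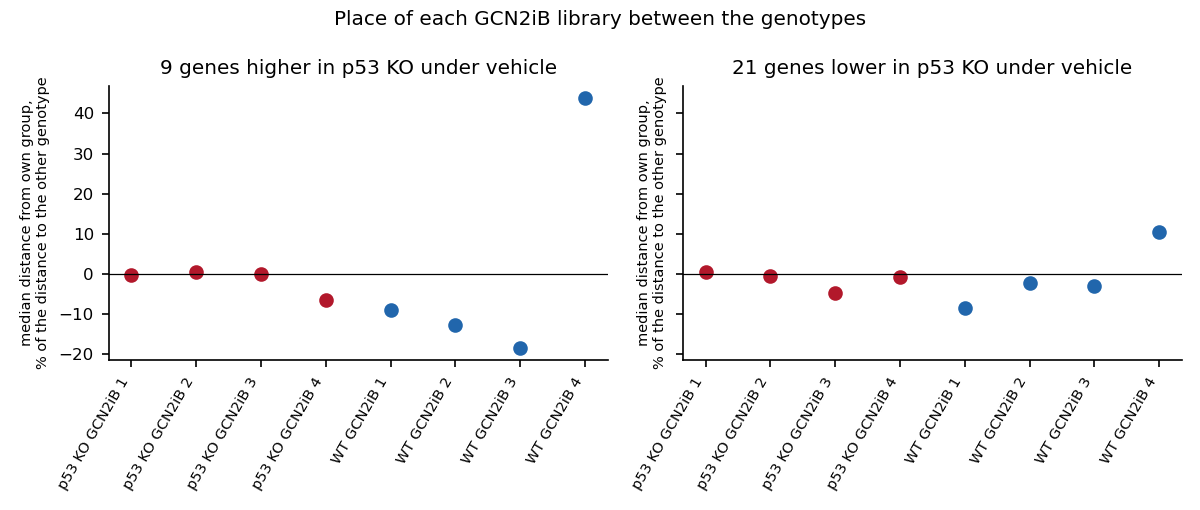
Each point is 1 GCN2iB library, and the vertical axis gives its median distance from the other libraries of its group as a percentage of the log2 distance to the other genotype, over 9 genes higher (left) and 21 genes lower (right) in p53 KO under vehicle. WT GCN2iB 4 lies at 43.7% on the left and 10.6% on the right, above every other GCN2iB library.

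Under GCN2iB 4441 of 18549 tested genes differed between p53 KO and WT cells (23.9%, edgeR quasi-likelihood test, Benjamini-Hochberg adjusted p under 0.05). In p53 KO cells 2356 were higher (12.7% of the tested genes) and 2085 lower (11.2%). At least a 2-fold difference was reached by 738 of the called genes, 384 higher and 354 lower. For 3649 of the 4441 called genes the p53 KO GCN2iB and WT GCN2iB libraries did not overlap. Without WT GCN2iB 4 the test called 4003 of 18808 genes (21.3%), 1869 higher and 2134 lower. Of these 3698 were also called with all 8 libraries, 0 in the opposite direction, and the size of the difference was greater without WT GCN2iB 4 for 2724 of them (73.7%). More lower than higher calls were not particular to leaving out WT GCN2iB 4. With DESeq2 size factors 2114 of 4391 calls were higher, and without WT Vehicle replicate 1, which is outside this comparison, 2185 of 4650. With library totals 2619 of 4523 were higher, and with limma voom 2300 of 4375.

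Under vehicle the same test called 4025 genes (21.7%), 1787 higher (9.63%) and 2238 lower (12.1%) in p53 KO. With library totals as the only scaling this split turned to 2467 higher of 4060. Both comparisons called 2543 genes, which is 57.3% of the calls under GCN2iB and 63.2% of those under vehicle. Of these 2536 had the same direction, with a median size of log2 0.50 under GCN2iB and 0.50 under vehicle. A further 1898 genes were called under GCN2iB and not under vehicle, with a median size of log2 0.33, and 1649 of them had the same sign under vehicle.

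A call under GCN2iB alone does not show that the genotype difference changed with the inhibitor, so the difference between both genotype differences was tested for every gene. It passed the threshold for 1 gene, SESN2 (0.00539% of the tested genes). At an unadjusted p under 0.05 the genotype difference was shifted upwards in p53 KO under GCN2iB for 1098 genes (5.92%) and downwards for 656 (3.54%). These counts are for TMM scaling, with a median difference of log2 0.023 over all tested genes, and depend on it. For 20 cytosolic aminoacyl-tRNA synthetases the median difference was log2 0.13 with TMM, 0.11 with DESeq2 size factors and 0.088 with library totals. With DESeq2 38 genes passed the threshold for the difference, and with limma voom 1. With the replicate number added to the edgeR model as a block 61 passed, SESN2 among them. The main edgeR test, without that block, called 0 genes with a smaller genotype difference under GCN2iB than under vehicle. DESeq2 called 12, limma voom 0 and edgeR with the block 21. In the main edgeR test 1754 genes had an unadjusted p under 0.05, of either kind.

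**Figure D2:**
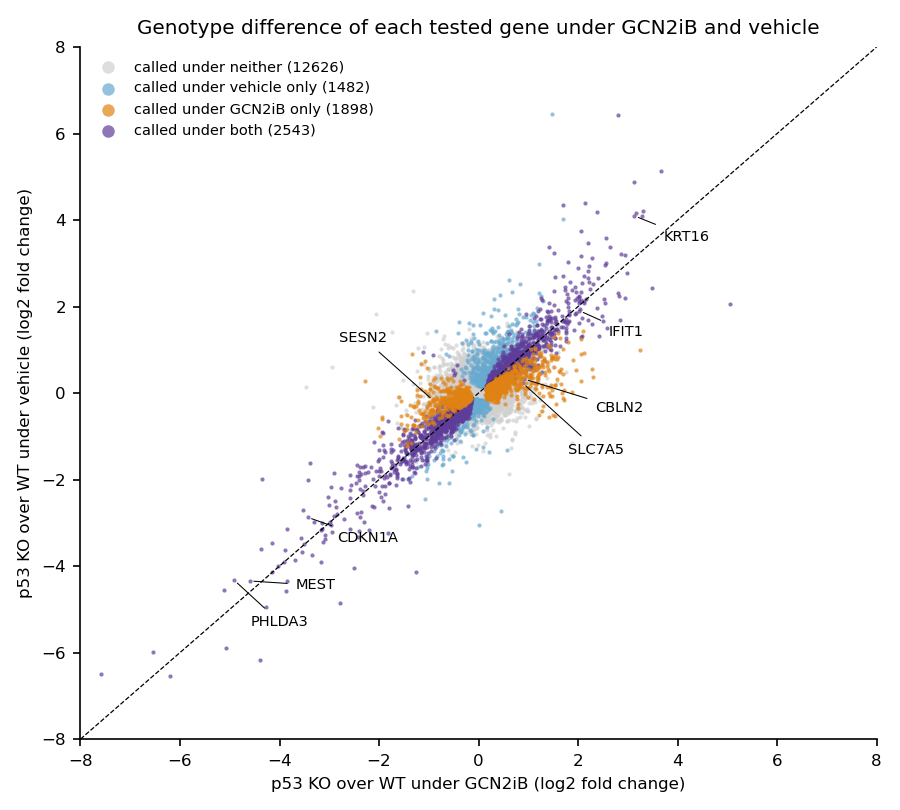
Each point is 1 of 18549 tested genes, with the log2 fold change of p53 KO over WT under GCN2iB on the horizontal axis and under vehicle on the vertical axis, coloured by the comparison that called it, and the dashed line marks equal values. Of the 2543 genes called under both 2536 have the same direction in both and 7 the opposite direction. SESN2 lies away from the line at -0.91 under GCN2iB and -0.17 under vehicle.

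SESN2 (ENSG00000130766, chromosome 1, 28259527 to 28282491 in GRCh38) encodes sestrin 2, a leucine-binding protein that restrains the growth kinase complex mTORC1 and is induced by p53 and by ATF4. Its level was 20.4, 21, 19.1 and 21.3 CPM in the p53 KO GCN2iB libraries, against 37.7, 41, 39.2 and 36.5 CPM in the WT GCN2iB libraries. Under vehicle it was 40.4, 44.9, 47.2 and 46.6 CPM in p53 KO and 45.8, 52.2, 52.1 and 51.4 CPM in WT. The 4 p53 KO GCN2iB libraries were the lowest of all 16, and the WT GCN2iB libraries did not overlap with them, while p53 KO and WT libraries overlapped under vehicle. Under GCN2iB SESN2 was 1.88-fold lower in p53 KO (log2 -0.91, SE 0.069, adjusted p = 1.26e-09), and under vehicle the difference did not pass the threshold (log2 -0.17, SE 0.066, adjusted p = 0.0700). The difference between them was log2 -0.74 (SE 0.096, adjusted p = 0.00142). Without WT GCN2iB 4 the value under GCN2iB was log2 -0.96, adjusted p = 2.85e-09, and the difference log2 -0.79, adjusted p = 0.00202. Over 23 other settings, each library left out in turn among them, the difference lay between log2 -0.81 and -0.71, with adjusted p between 1.16e-09 and 0.00772, and it passed the threshold in all 23.

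SESN1 and DDIT4, which also restrain mTORC1, were lower in p53 KO under both treatments. SESN1, a p53 target of the same family, averaged 17.2 ± 1.46 CPM in p53 KO GCN2iB and 55.7 ± 5.77 CPM in WT GCN2iB (SD, n = 4 each), a 3.24-fold fall (log2 -1.70, SE 0.081, adjusted p = 3.24e-13), with log2 -1.77 under vehicle. DDIT4, which encodes the mTORC1 inhibitor REDD1 and answers to p53, ATF4 and low oxygen, had 178, 166, 148 and 224 CPM in p53 KO GCN2iB and 291, 336, 335 and 327 CPM in WT GCN2iB. It fell under GCN2iB (log2 -0.85, SE 0.097, adjusted p = 1.26e-06) and under vehicle (log2 -0.38, SE 0.096, adjusted p = 0.00573), and the difference of log2 -0.46 did not pass (adjusted p = 0.326, unadjusted p = 0.00266). Over the whole list of 33 sestrin and amino acid sensing genes 4 rose and 4 fell, shares of the list near those over all genes, with a median of log2 0.0026 (-0.015 with DESeq2 size factors and -0.020 without WT GCN2iB 4) against 0.025 over all tested genes. The falls were SESN1, SESN2, DDIT4 and KPTN, a subunit of the KICSTOR complex that tethers GATOR1 to lysosomes.

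**Figure D3:**
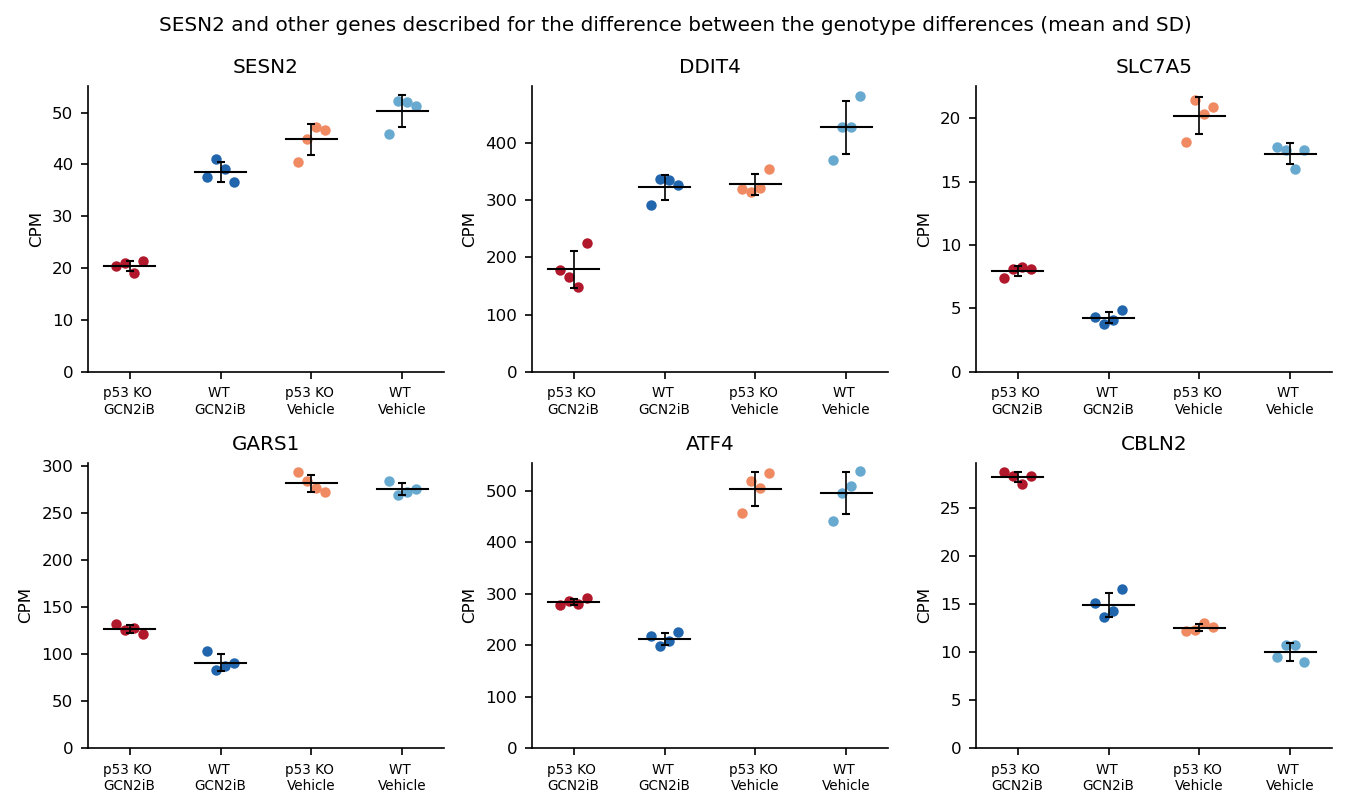
Points are CPM of SESN2, DDIT4, SLC7A5, GARS1, ATF4 and CBLN2 in each of the 4 libraries of the 4 groups, with a line at the mean and bars of 1 SD. In all 6 panels the p53 KO GCN2iB and WT GCN2iB points do not overlap, as for 3649 of the 4441 genes called under GCN2iB. Under vehicle the p53 KO and WT points overlap for SESN2, GARS1 and ATF4. Of the genes shown only SESN2 passed the threshold for the difference between treatments.

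Known p53 targets were lower in p53 KO, which checks the labels of the libraries. CDKN1A (ENSG00000124762, chromosome 6, 36676460 to 36687339) had 39.9, 38.5, 41.5 and 51.7 CPM in the p53 KO GCN2iB libraries, against 483, 501, 498 and 375 CPM in the WT GCN2iB libraries, and all p53 KO values lay far below all WT values. The fall was 10.8-fold (log2 -3.43, SE 0.11, adjusted p = 1.90e-15) and 7.33-fold under vehicle, where it averaged 37.5 ± 3.73 CPM in p53 KO and 275 ± 21.1 CPM in WT (SD, n = 4 each). The difference of log2 -0.56 had an unadjusted p of 5.62e-04 and an adjusted p of 0.286, and was called in 3 of 23 other settings. MDM2 (ENSG00000135679, chromosome 12, 68808176 to 68850686), the ubiquitin ligase that degrades p53 and is itself its target, had 56, 53.4, 57 and 42.7 CPM in p53 KO GCN2iB and 126, 114, 126 and 108 CPM in WT GCN2iB, a 2.27-fold fall (log2 -1.18, SE 0.089, adjusted p = 1.12e-09).

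Of 38 tested p53 targets 29 fell and 4 rose under GCN2iB, with a median of log2 -0.77 (86.8% called, against 23.9% of all tested genes). Under vehicle 29 fell and 1 rose, and with WT GCN2iB 4 left out 30 fell and 3 rose under GCN2iB. PHLDA3 (ENSG00000174307, chromosome 1, 201464383 to 201469237), an inhibitor of the kinase AKT, had the largest fall among the genes named by the rule, with 4.08, 4.69, 2.88 and 6.81 CPM in p53 KO GCN2iB and 120.0, 147, 167 and 139.8 CPM in WT GCN2iB (30.1-fold; log2 -4.91, SE 0.18, adjusted p = 2.83e-12). SPATA18, which acts in mitochondrial quality control, was 10.2-fold lower (log2 -3.35, SE 0.16, adjusted p = 2.51e-13), and BTG2, which restrains proliferation, 3.09-fold lower (log2 -1.63, SE 0.072, adjusted p = 1.02e-13). The cell death gene BAX averaged 40.7 CPM in p53 KO GCN2iB and 86.8 CPM in WT GCN2iB (log2 -1.09), and BBC3, which encodes PUMA, averaged 3.46 CPM in p53 KO GCN2iB and 13 CPM in WT GCN2iB (log2 -1.88). The fall of BBC3 under vehicle was log2 -1.37, with an unadjusted p of 0.00452 for the difference that did not pass the adjustment (adjusted p = 0.349). GDF15, a secreted stress cytokine, averaged 321 ± 94.1 CPM in p53 KO GCN2iB and 1062 ± 95.1 CPM in WT GCN2iB (log2 -1.73). For these cell death and cytokine genes no p53 KO GCN2iB library reached the level of a WT GCN2iB library. The same lack of overlap held for 3649 of all 4441 called genes, so it is not particular to them. RRM2B, the p53-controlled subunit of ribonucleotide reductase, fell less (log2 -0.38, adjusted p = 0.00147). The 4 that rose were BTG1, CMBL, PMAIP1 and KITLG, and BTG1, an antiproliferative relative of BTG2, had log2 0.51 under GCN2iB and 0.25 under vehicle. The call of KITLG was lost when any of 6 libraries was left out (adjusted p up to 0.0918).

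DDB2 (ENSG00000134574, chromosome 11, 47214465 to 47239240), which recognises ultraviolet damage in DNA, averaged 17.2 ± 0.809 CPM in p53 KO GCN2iB and 49.8 ± 2.31 CPM in WT GCN2iB (SD, n = 4 each; log2 -1.53, adjusted p = 1.68e-13). Its promoter window is shown because it holds a match to the p53 consensus, with its repeats at most 1 base apart and in capitals here, a match found in 0.0199% of all RefSeq promoter windows of 300 bases (250 before to 50 after the start). The windows of CDKN1A, MDM2, BTG2, SPATA18, SESN1 and SESN2 held no such match, which says nothing of sites elsewhere.
DDB2 (GRCh38.p14 chr11:47214724-47215023, plus strand): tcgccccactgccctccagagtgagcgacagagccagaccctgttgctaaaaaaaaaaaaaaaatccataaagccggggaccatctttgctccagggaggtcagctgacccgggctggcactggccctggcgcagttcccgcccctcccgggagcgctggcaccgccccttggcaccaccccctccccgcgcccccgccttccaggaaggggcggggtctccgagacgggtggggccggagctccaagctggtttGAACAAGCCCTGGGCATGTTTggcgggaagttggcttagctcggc

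The other large falls were in genes outside the p53 list, and all of those named here were also called under vehicle. MEST, an imprinted hydrolase-like gene, had 0.335, 0.317, 0.288 and 0.233 CPM in p53 KO GCN2iB and 8.44, 6.89, 8.25 and 5.36 CPM in WT GCN2iB (log2 -4.60; -4.34 under vehicle). SLC22A3, an organic cation transporter, averaged 0.640 CPM in p53 KO GCN2iB and 11.9 CPM in WT GCN2iB (log2 -4.28; -4.94 under vehicle). SMO, the signal transducer of the hedgehog pathway, averaged 0.376 CPM in p53 KO GCN2iB and 6.64 CPM in WT GCN2iB (16.5-fold lower; 16-fold lower under vehicle). GUCY1B1, a subunit of the nitric oxide receptor, and C9orf64 fell by 3.17 and 3.08 on the log2 scale. CEL, which encodes a lipase, had log2 -3.57, but it has a near-identical pseudogene copy that could share its reads, and the same holds for PCDH11Y and its copy on the X chromosome. The rule that named these genes required no overlap between the 4 p53 KO GCN2iB and 4 WT GCN2iB libraries. Their separation is therefore no separate result, and no value is given for PCDH11Y.

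The rule for large rises took called genes whose groups did not overlap and whose higher group averaged 5 CPM or more. The 10 it named under GCN2iB included 5 interferon-stimulated genes, IFIT1, IFIT2, IFIT3, RSAD2 and CXCL10. IFIT1 (ENSG00000185745, chromosome 10, 89392546 to 89406486), which binds viral RNA, had 79.9, 76.9, 80.3 and 80.1 CPM in the p53 KO GCN2iB libraries and 17.5, 15.9, 13.8 and 30.2 CPM in the WT GCN2iB libraries. All p53 KO values were above all WT values, which the rule required, and WT GCN2iB 4 was the highest WT library. The rise was 4.08-fold (log2 2.03, SE 0.16, adjusted p = 8.01e-08), 4.96-fold without WT GCN2iB 4, and 3.74-fold under vehicle. IFIT3 averaged 51.3 CPM in p53 KO GCN2iB and 13.1 CPM in WT GCN2iB (3.87-fold; 4.71-fold without WT GCN2iB 4), IFIT2 86.8 CPM in p53 KO GCN2iB and 24.9 CPM in WT GCN2iB (3.47-fold; 4.11-fold without WT GCN2iB 4), and RSAD2, which encodes the antiviral enzyme viperin, 26.8 CPM in p53 KO GCN2iB and 7.65 CPM in WT GCN2iB (3.48-fold; 4.21-fold without WT GCN2iB 4). The chemokine CXCL10 had 12.1, 10.6, 11.7 and 12.6 CPM in p53 KO GCN2iB and 2.17, 2.08, 1.67 and 4.45 CPM in WT GCN2iB (log2 2.15, SE 0.19, adjusted p = 3.95e-08), and the chemokine CCL5 averaged 13.5 CPM in p53 KO GCN2iB and 2.84 CPM in WT GCN2iB (log2 2.21, SE 0.26, adjusted p = 1.21e-05). Without WT GCN2iB 4 the values were log2 2.55 for CXCL10 and 2.73 for CCL5.

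Of 41 tested interferon-stimulated genes 29 rose and 2 fell in p53 KO under GCN2iB, with a median of log2 0.90. This is 75.6% called, against 23.9% of all tested genes. Under vehicle 25 rose and 1 fell, with a median of log2 0.76. With WT GCN2iB 4 left out 27 rose and 2 fell under GCN2iB. OASL, an antiviral oligoadenylate synthetase-like protein, averaged 139.8 ± 8.24 CPM in p53 KO GCN2iB and 46.5 ± 11.8 CPM in WT GCN2iB (3.00-fold; 3.38-fold without WT GCN2iB 4), and OAS1 was 2.53-fold higher. ISG15, a ubiquitin-like modifier, was 1.86-fold higher (log2 0.90, SE 0.14, adjusted p = 1.05e-04). The 2 that fell were HERC6 (log2 -0.35) and MX1 (log2 -0.25, adjusted p = 0.0306). The call of MX1 was lost without WT GCN2iB 2, WT GCN2iB 3 or p53 KO GCN2iB 4 (adjusted p up to 0.0747) and with library totals. IFI44 had the smallest p for a difference between treatments among the rises, with log2 1.03 under GCN2iB and 0.65 under vehicle (unadjusted p = 0.00413, adjusted p = 0.344).

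Promoter windows of 4 of these genes are shown because each holds the core of the interferon-stimulated response element, TTTCNNTTTC, on either strand, in capitals. The motif occurs in 3.57% of all RefSeq windows of this length, and was also found in a window of ISG15 and not in those of IGFBP3, EPHA3 and AGR2.
IFIT1 (GRCh38.p14 chr10:89392373-89392672, plus strand): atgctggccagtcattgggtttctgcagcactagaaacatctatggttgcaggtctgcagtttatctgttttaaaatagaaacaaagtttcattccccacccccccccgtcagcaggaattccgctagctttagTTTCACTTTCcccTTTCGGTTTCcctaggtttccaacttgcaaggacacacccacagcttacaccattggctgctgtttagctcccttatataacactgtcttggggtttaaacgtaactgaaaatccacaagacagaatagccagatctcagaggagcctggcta
IFIT3 (GRCh38.p14 chr10:89327747-89328046, plus strand): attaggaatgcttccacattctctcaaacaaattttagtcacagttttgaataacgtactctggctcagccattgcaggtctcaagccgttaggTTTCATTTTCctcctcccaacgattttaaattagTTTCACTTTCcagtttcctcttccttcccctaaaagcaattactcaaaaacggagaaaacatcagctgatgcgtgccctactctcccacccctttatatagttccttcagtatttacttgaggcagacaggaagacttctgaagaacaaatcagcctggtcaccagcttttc
RSAD2 (GRCh38.p14 chr2:6877527-6877826, plus strand): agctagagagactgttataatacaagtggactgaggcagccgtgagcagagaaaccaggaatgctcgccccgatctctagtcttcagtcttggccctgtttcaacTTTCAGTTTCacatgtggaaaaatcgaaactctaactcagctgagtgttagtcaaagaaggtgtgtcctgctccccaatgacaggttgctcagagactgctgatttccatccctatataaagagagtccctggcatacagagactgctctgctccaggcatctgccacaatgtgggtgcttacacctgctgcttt
CXCL10 (GRCh38.p14 chr4:76023448-76023747, minus strand): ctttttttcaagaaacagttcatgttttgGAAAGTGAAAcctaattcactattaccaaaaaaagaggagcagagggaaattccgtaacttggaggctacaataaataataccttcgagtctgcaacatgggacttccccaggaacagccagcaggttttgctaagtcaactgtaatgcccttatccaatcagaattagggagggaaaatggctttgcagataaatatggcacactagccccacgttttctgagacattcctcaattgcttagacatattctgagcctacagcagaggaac

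The rule also named CCL5, KRT16, IGFBP3, EPHA3 and AGR2. KRT16 (ENSG00000186832, chromosome 17, 41609778 to 41615899), a stress keratin, had 6.39, 6.85, 5.13 and 8.04 CPM in p53 KO GCN2iB and 0.466, 0.302, 0.289 and 1.80 CPM in WT GCN2iB. WT GCN2iB 4 was well above the other WT GCN2iB libraries, and the rise was 8.77-fold with it and 18.3-fold without it. KRT6A, another stress keratin, averaged 2.64 CPM in p53 KO GCN2iB and 0.426 CPM in WT GCN2iB and its rise was 5.81-fold with WT GCN2iB 4 and 12.6-fold without it. KRT16, KRT6A and KRT6B have close paralogs and pseudogene copies that may share reads. IGFBP3, a binding protein of insulin-like growth factors and a known p53 target, was higher, with 80.1, 81.2, 81.9 and 83.7 CPM in p53 KO GCN2iB and 14.5, 12.6, 13.6 and 30.1 CPM in WT GCN2iB (log2 2.20, SE 0.20, adjusted p = 2.19e-06; log2 2.57 without WT GCN2iB 4). EPHA3, an ephrin receptor, averaged 41.9 CPM in p53 KO GCN2iB and 9.94 CPM in WT GCN2iB (4.17-fold; 4.87-fold without WT GCN2iB 4), and AGR2, a protein disulfide isomerase of secretory cells, 89.7 CPM in p53 KO GCN2iB and 22.6 CPM in WT GCN2iB (3.95-fold; 5.12-fold without WT GCN2iB 4). None of these differences was called as changed between GCN2iB and vehicle.

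**Figure D4:**
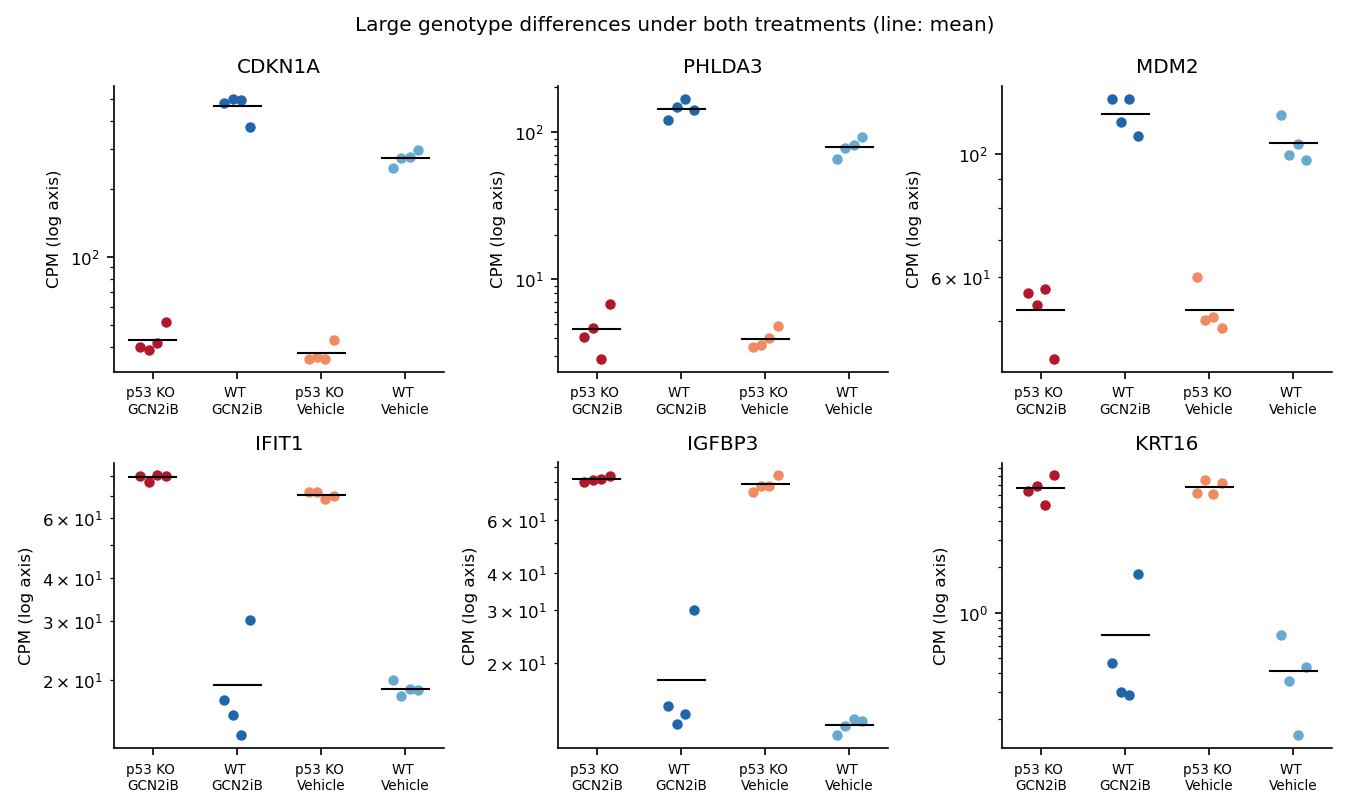
Points are CPM on a log axis of CDKN1A, PHLDA3, MDM2, IFIT1, IGFBP3 and KRT16 in each library of the 4 groups, with a line at the mean. p53 KO and WT points are apart under both treatments, and for IFIT1, IGFBP3 and KRT16 the fourth WT GCN2iB point lies above the other WT GCN2iB points.

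ATF4 itself and 14 other genes of the integrated stress response rose in p53 KO under GCN2iB. ATF4 (ENSG00000128272, chromosome 22, 39519695 to 39522685) had 279, 287, 279 and 292 CPM in p53 KO GCN2iB and 217, 199, 209 and 226 CPM in WT GCN2iB, without overlap, a 1.34-fold rise (log2 0.42, SE 0.064, adjusted p = 3.99e-05). Under vehicle the groups overlapped, with 457, 519.7, 505 and 535 CPM in p53 KO and 442, 496, 509 and 538 CPM in WT (log2 0.022, adjusted p = 0.853). The difference of log2 0.40 had an unadjusted p of 2.21e-04 and an adjusted p of 0.225, and passed in 2 of 23 other settings. EIF2AK4, the gene of GCN2 itself, averaged 117 ± 14.8 CPM in p53 KO GCN2iB and 112 ± 5.21 CPM in WT GCN2iB and was not called (adjusted p = 0.610), and GCN1, the partner that activates GCN2 on ribosomes, was slightly lower (log2 -0.22, adjusted p = 0.0139).

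Among 31 tested members of the ATF4 list, 15 rose and 5 fell under GCN2iB (median log2 0.25), and 9 rose and 5 fell under vehicle (median log2 0.17). Under GCN2iB 64.5% of the tested members were called, against 23.9% of all tested genes. The difference between treatments had an unadjusted p under 0.05 for 8 members shifted upwards and 3 downwards. Over all tested genes 5.92% were shifted upwards and 3.54% downwards at this p. ADM2, a secreted peptide, was 1.61-fold higher (log2 0.69, SE 0.070, adjusted p = 1.34e-07). CHAC1, which breaks down glutathione, had 2.99, 3.17, 3.17 and 4.28 CPM in p53 KO GCN2iB and 1.92, 1.65, 2.06 and 2.71 CPM in WT GCN2iB (log2 0.70, SE 0.16, adjusted p = 0.00207), and log2 0.22 under vehicle (adjusted p = 0.154). DDIT3, which encodes the stress factor CHOP, was 1.79-fold higher under GCN2iB and 1.82-fold under vehicle, and ATF3 1.55-fold and 1.59-fold. CEBPG (log2 0.39), TRIB3, a pseudokinase (log2 0.34), and PPP1R15A, which targets the eIF2 phosphatase (log2 0.44), also rose. ASNS, asparagine synthetase, averaged 3.48 ± 0.589 CPM in p53 KO GCN2iB and 3.55 ± 0.569 CPM in WT GCN2iB and was not called. The 5 that fell were SESN2, DDIT4, NIBAN1, KLHL24 and SQSTM1, and NIBAN1 averaged 0.247 CPM in p53 KO GCN2iB and 1.83 CPM in WT GCN2iB (log2 -3.08). The call of SQSTM1 was lost without p53 KO GCN2iB 2 (adjusted p = 0.0549).

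Among amino acid transporters, several known ATF4 targets rose. SLC7A5 (ENSG00000103257, chromosome 16, 87830023 to 87869488), the carrier of leucine and other large neutral amino acids known as LAT1, had 7.43, 8.08, 8.24 and 8.09 CPM in p53 KO GCN2iB and 4.35, 3.80, 4.08 and 4.89 CPM in WT GCN2iB, a 1.85-fold rise without overlap (log2 0.89, SE 0.093, adjusted p = 2.10e-07). Under vehicle it had 18.1, 21.4, 20.3 and 20.9 CPM in p53 KO and 17.8, 17.5, 16 and 17.5 CPM in WT, a 1.17-fold rise (adjusted p = 0.0365). The difference of log2 0.65 missed the threshold (adjusted p = 0.0526) and passed it without WT GCN2iB 4 (adjusted p = 0.0369). It passed in 5 of 23 other settings, with adjusted p between 0.00355 and 0.247. SLC7A11, the cystine importer, averaged 59 ± 6.70 CPM in p53 KO GCN2iB and 35.4 ± 1.90 CPM in WT GCN2iB (log2 0.74, SE 0.11, adjusted p = 2.22e-05), and was not called under vehicle (log2 0.18, adjusted p = 0.229). SLC43A1, another carrier of branched amino acids, was 1.71-fold higher, SLC1A4 1.45-fold and the glycine transporter SLC6A9 1.33-fold. Of 19 tested transporters 7 rose and 4 fell (57.9% called, 23.9% over all tested genes), against 5 and 2 under vehicle. The falls were SLC43A2, SLC36A4, SLC38A9 and SLC7A6, of log2 -0.39 to -0.25. The call of SLC7A6 was lost when any of 3 libraries was left out, with an adjusted p up to 0.145 (without p53 KO GCN2iB 4).

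Aminoacyl-tRNA synthetases, which charge transfer RNA, moved in smaller steps. GARS1 (ENSG00000106105, chromosome 7, 30594681 to 30634033), the glycine enzyme, had 132, 126, 128 and 122 CPM in p53 KO GCN2iB and 103, 83, 87 and 90.7 CPM in WT GCN2iB (log2 0.48, SE 0.062, adjusted p = 4.56e-06). Under vehicle the groups overlapped, at 293, 284, 276 and 272 CPM in p53 KO and 284, 269, 272 and 275 CPM in WT (log2 0.031, adjusted p = 0.771). The difference of log2 0.45 had an adjusted p of 0.0674 and passed in 5 of 23 other settings. CARS1 (log2 0.48) and WARS1 (log2 0.40) rose, and VARS1 fell (log2 -0.42). Of 20 cytosolic synthetases 6 rose and 2 fell under GCN2iB (40% called, against 23.9% of all tested genes). Under vehicle 2 rose and 3 fell. With WT GCN2iB 4 left out 3 rose and 2 fell under GCN2iB, in a fit that called 21.3% of all tested genes. With DESeq2 size factors 5 rose under GCN2iB, and with library totals 7. The value of the difference was above 0 for 19 of the 20, with a median of log2 0.13 against 0.023 over all tested genes. Most tested genes also had a value above 0, as their median shows. An unadjusted p under 0.05 was reached by 8, all shifted upwards, as were 5.92% of all tested genes.

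Promoter windows of GARS1 and CHAC1 are shown because each holds the core of the CEBP-ATF response element bound by ATF4, TGATGNAA, on either strand, in capitals. It occurs in 3.62% of all windows. The window of SESN2, the gene with the called difference, is given for comparison and holds no match, and none was found in those of ATF4, SLC7A5, DDIT4, TRIB3 and CBLN2. Of the 2 windows of GARS1 1 holds the match and is the one shown, and 1 of the 2 windows of ASNS, which was not called, also holds it.
GARS1 (GRCh38.p14 chr7:30594628-30594927, plus strand): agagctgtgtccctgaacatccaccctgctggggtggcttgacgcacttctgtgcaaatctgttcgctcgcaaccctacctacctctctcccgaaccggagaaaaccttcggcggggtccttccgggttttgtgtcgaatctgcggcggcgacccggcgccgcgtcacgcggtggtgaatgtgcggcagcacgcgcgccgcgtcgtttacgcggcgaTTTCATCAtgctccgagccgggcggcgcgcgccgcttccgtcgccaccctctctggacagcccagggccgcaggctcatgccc
CHAC1 (GRCh38.p14 chr15:40953221-40953520, plus strand): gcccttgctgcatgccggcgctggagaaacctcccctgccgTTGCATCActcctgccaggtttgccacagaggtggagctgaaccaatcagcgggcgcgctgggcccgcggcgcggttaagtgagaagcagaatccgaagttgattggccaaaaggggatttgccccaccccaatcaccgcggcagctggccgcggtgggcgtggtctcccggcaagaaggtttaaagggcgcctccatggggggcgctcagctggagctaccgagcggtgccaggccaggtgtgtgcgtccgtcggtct
SESN2 (GRCh38.p14 chr1:28259268-28259567, plus strand): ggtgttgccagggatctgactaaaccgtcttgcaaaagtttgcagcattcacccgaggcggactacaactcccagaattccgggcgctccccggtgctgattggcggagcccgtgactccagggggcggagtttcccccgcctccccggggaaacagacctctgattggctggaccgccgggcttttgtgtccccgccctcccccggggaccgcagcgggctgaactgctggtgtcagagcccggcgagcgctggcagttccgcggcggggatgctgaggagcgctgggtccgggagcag

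Several genes came near the threshold for the difference or passed it in other settings, and were chosen after their values were seen. CBLN2, which encodes a secreted synaptic protein, had 28.7, 28.3, 27.5 and 28.3 CPM in p53 KO GCN2iB and 15.1, 13.7, 14.2 and 16.6 CPM in WT GCN2iB (1.89-fold; log2 0.92, SE 0.075, adjusted p = 3.77e-09). Under vehicle it averaged 12.5 ± 0.380 CPM in p53 KO and 10.0 ± 0.902 CPM in WT (1.25-fold; SD, n = 4 each). The difference of log2 0.60 had an adjusted p of 0.0526 and 0.0369 without WT GCN2iB 4, and passed in 6 of 23 other settings (adjusted p up to 0.227). METRNL, which encodes a secreted hormone-like protein, averaged 2.61 ± 0.534 CPM in p53 KO GCN2iB and 4.67 ± 0.889 CPM in WT GCN2iB (log2 -0.81, adjusted p = 4.12e-04; the libraries overlapped), with log2 0.12 under vehicle. Its difference passed in 4 of 23 other settings. TMPRSS9 was not called under GCN2iB (log2 -0.16) and was higher in p53 KO under vehicle (log2 1.15, adjusted p = 2.27e-05), and its difference passed in 8 settings.

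Of the genes called under both treatments 7 had opposite directions. The nuclear noncoding RNA NEAT1, a scaffold of paraspeckles, had 460.2, 492, 487 and 570.0 CPM in p53 KO GCN2iB and 526, 725, 822 and 768 CPM in WT GCN2iB (log2 -0.50, SE 0.13, adjusted p = 0.00893). WT GCN2iB 1 overlapped with the p53 KO GCN2iB libraries, and the other WT GCN2iB libraries lay above them. Under vehicle it averaged 570.5 ± 46.2 CPM in p53 KO and 426 ± 76.7 CPM in WT (SD, n = 4 each; log2 0.42, SE 0.13, adjusted p = 0.0264). The difference had an unadjusted p of 9.81e-05 and an adjusted p of 0.152. PTOV1 (log2 -0.29 and 0.29 under vehicle), L3MBTL1 (-0.48 and 0.46) and TEX22 (-0.43 and 0.66) were among the others, which also held a pseudogene and 2 unnamed IDs. TEX22 and PTOV1 were no longer called under GCN2iB without WT GCN2iB 4 (adjusted p = 0.0529 and 0.0990). Leaving out single other libraries also ended the calls of PTOV1, TEX22 and L3MBTL1 (adjusted p up to 0.105, 0.103 and 0.0882, each without p53 KO GCN2iB 2).

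The title of the series names purine metabolism, and few genes of purine synthesis passed the test between the genotypes under GCN2iB. Of 13 tested de novo purine genes 1 rose and 0 fell (7.69% called, against 23.9% of all tested genes). With WT GCN2iB 4 left out 2 rose, in a fit that called 21.3% of all tested genes. With all 8 libraries the rise was in PRPS1, which makes the ribose phosphate donor, with 270.2, 279, 280.4 and 291 CPM in p53 KO GCN2iB and 236, 225, 235 and 238 CPM in WT GCN2iB (log2 0.26, SE 0.050, adjusted p = 4.47e-04). ATIC, which completes the purine ring, averaged 197 ± 7.38 CPM in p53 KO GCN2iB and 185 ± 6.92 CPM in WT GCN2iB (SD, n = 4 each) and was not called (log2 0.090), whereas under vehicle it was lower in p53 KO (log2 -0.21, adjusted p = 0.00402), with an adjusted p of 0.260 for the difference. PPAT, the committing enzyme, averaged 107 ± 10.7 CPM in p53 KO GCN2iB and 107 ± 3.08 CPM in WT GCN2iB. GART had log2 0.10, PFAS -0.13, PAICS 0.026 and IMPDH2, which leads to guanine nucleotides, 0.20, and none of them was called. The difference between treatments had an unadjusted p under 0.05 for 5 members, all shifted upwards, as were 5.92% of all tested genes. The median difference was log2 0.13, against 0.023 over all tested genes.

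In purine salvage and breakdown 3 of 17 genes rose and 3 fell (35.3% called; 23.9% of all tested genes were called). HPRT1, which recycles hypoxanthine and guanine, was higher (log2 0.29), and ADA, adenosine deaminase (log2 -0.49), and the nucleoside transporter SLC29A1 (log2 -0.39) were lower. In the pyrimidine and deoxynucleotide list 3 of 20 rose and 3 fell (30.0% called). CAD, which starts pyrimidine synthesis, was lower (log2 -0.22), as was DCTD, deoxycytidylate deaminase (log2 -0.47), and UPP1, uridine phosphorylase, was 1.88-fold higher. Of 25 serine, glycine and one-carbon enzymes 5 rose and 3 fell (32% called). PSAT1 (log2 0.29) and MTHFD2 (log2 0.30), which are ATF4 targets in serine synthesis and mitochondrial folate metabolism, rose under GCN2iB and were not called under vehicle. PHGDH, the first enzyme of serine synthesis, rose weakly (log2 0.19, adjusted p = 0.0464), a call lost when any of 14 of the 16 libraries was left out (adjusted p up to 0.181), and GLDC, which breaks down glycine, fell (log2 -0.61).

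Of genes of mitosis, more rose than fell in p53 KO cells. Of 35 G2/M genes 15 rose and 1 fell under GCN2iB (45.7% called, against 23.9% of all tested genes). Under vehicle 13 rose and 1 fell. With WT GCN2iB 4 left out 8 rose and 1 fell under GCN2iB, in a fit that called 21.3% of all tested genes. With DESeq2 size factors 11 rose under GCN2iB, and with library totals 18. The fall under GCN2iB with all 8 libraries was in the checkpoint gene MAD2L1 (log2 -0.15). Its call was lost when any of 4 libraries was left out (adjusted p up to 0.0700). CDC25B, a phosphatase that activates mitotic kinases, averaged 133 ± 3.17 CPM in p53 KO GCN2iB and 89 ± 5.09 CPM in WT GCN2iB (log2 0.58, SE 0.065, adjusted p = 7.18e-07), PTTG1, securin, had log2 0.48, NUF2, a kinetochore protein, 0.46 and CDC20 0.34. MKI67, the proliferation marker, averaged 175 ± 43.2 CPM in p53 KO GCN2iB and 184 ± 15.1 CPM in WT GCN2iB and was not called, nor was the cyclin CCNA2 (log2 -0.097). Of 42 replication genes 7 rose and 3 fell under GCN2iB (23.8% called, a share near the 23.9% over all tested genes), against 2 and 11 under vehicle, with medians of log2 0.017 and -0.11. With WT GCN2iB 4 left out 4 rose and the median under GCN2iB was log2 -0.020, and with DESeq2 size factors it was -0.00068. The value of the difference was above 0 for 37 of them, with a median of log2 0.12 against 0.023 over all tested genes. As that median is above 0, most tested genes also had a value above 0. An unadjusted p under 0.05 was reached by 12 of the 42, none shifted downwards. Over all tested genes 5.92% were shifted upwards at this p. GINS3, of the replicative helicase, rose (log2 0.37), PCNA, the sliding clamp and a p53 target, fell (log2 -0.24), and MCM3 fell under both treatments (log2 -0.21 under GCN2iB and -0.44 under vehicle). CHAF1B rose (log2 0.21, adjusted p = 0.0294), a call lost when any of 14 of the 16 libraries was left out (adjusted p up to 0.191).

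**Figure D5:**
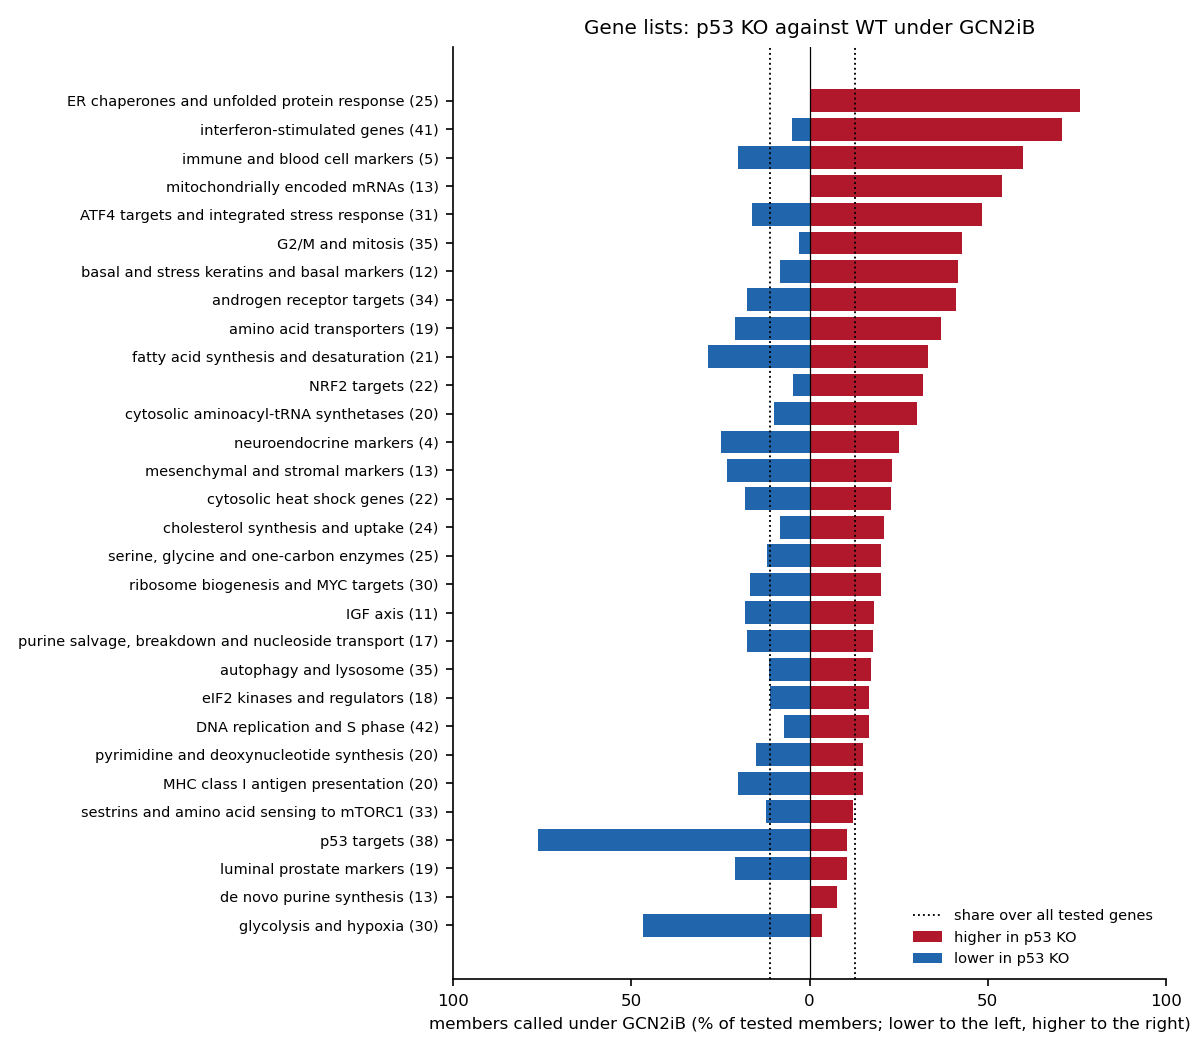
Bars give, for 30 gene lists with the number of tested members in brackets, the percentage called higher (right) and lower (left) in p53 KO than in WT under GCN2iB, and dotted lines mark the shares over all tested genes, 12.7% and 11.2%. ER chaperones and interferon-stimulated genes reach farthest to the right and p53 targets and glycolysis genes farthest to the left.

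Most chaperone and stress genes of the endoplasmic reticulum were higher in p53 KO cells. Of 25 tested members 19 rose and 0 fell under GCN2iB (median log2 0.30), and 17 rose under vehicle (median log2 0.42). Under GCN2iB 76% were called, against 23.9% of all tested genes. PDIA4, a protein disulfide isomerase, had 862, 844, 859.9 and 856 CPM in p53 KO GCN2iB and 560.5, 539, 545 and 612 CPM in WT GCN2iB (log2 0.60, SE 0.051, adjusted p = 8.44e-09). HSPA5, the main chaperone of the compartment, averaged 2285 ± 82.1 CPM in p53 KO GCN2iB and 1667 ± 105 CPM in WT GCN2iB (log2 0.46), HSP90B1 had log2 0.53 and HERPUD1 0.52. Cytosolic heat shock genes were mixed, with 5 of 22 higher and 4 lower (40.9% called). HSP90AA1 (log2 0.31) and the factor HSF2 (0.33) were higher, and HSPA1B, which has a near-identical copy, had log2 -0.40.

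Glycolysis and hypoxia genes that differed were lower in p53 KO, with 1 exception. Of 30 members 14 fell and 1 rose under GCN2iB, against 24 and 1 under vehicle, with medians of log2 -0.19 and -0.35. Over all tested genes 11.2% were lower under GCN2iB and 12.1% under vehicle. PFKFB4, which makes an activator of glycolysis, had 25.5, 18.5, 17.5 and 27.2 CPM in p53 KO GCN2iB and 43.4, 39.7, 38.5 and 43.6 CPM in WT GCN2iB (log2 -0.89, SE 0.11, adjusted p = 5.39e-06). PFKP, phosphofructokinase, had log2 -0.49 and VEGFA, the angiogenic growth factor, -0.35. PDK1, which blocks pyruvate entry into mitochondria, had log2 -0.32 under GCN2iB and -0.62 under vehicle (unadjusted p of the difference = 0.0235, adjusted p = 0.462). The difference had an unadjusted p under 0.05 for 8 members shifted upwards and 1 downwards, against 5.92% and 3.54% of all tested genes. The member that rose was the glucose transporter SLC2A3 (log2 1.02).

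Androgen receptor targets moved both ways. Of 34 tested members 14 rose and 6 fell (58.8% called, against 23.9% of all tested genes). KLK2, a secreted protease next to KLK3, averaged 457 ± 34.7 CPM in p53 KO GCN2iB and 305 ± 26.4 CPM in WT GCN2iB (log2 0.58, adjusted p = 8.02e-07), whereas KLK3 was not called (log2 -0.15, adjusted p = 0.0916). PGC, progastricsin, was 2.88-fold higher (log2 1.52, SE 0.11, adjusted p = 1.07e-09). TMPRSS2, a surface protease (log2 -0.56), the potassium channel KCNN2 (log2 -0.94) and the kinase CAMKK2 (log2 -0.59) were lower. Of 19 luminal markers 2 rose and 4 fell (31.6% called). The secreted protein MSMB was 2.21-fold higher, and ACP3, prostatic acid phosphatase (log2 -0.40), and EPCAM (log2 -0.38) were lower.

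Many markers of other cell types were near 0 in both genotypes. Of 18 basal markers 9 averaged under 1 CPM over the 8 libraries. Of 12 tested basal markers 5 rose, KRT16, KRT6A, KRT6B, KRT14 and LAMB3 (4.01 CPM in p53 KO GCN2iB and 2.01 CPM in WT GCN2iB), and 1 fell. This is 50% called, against 23.9% of all tested genes. The summed basal level was 209 to 269 CPM in p53 KO GCN2iB and 231 to 255 CPM in WT GCN2iB. Of 13 tested mesenchymal markers 3 rose and 3 fell (46.2% called). The factor SNAI2 averaged 6.07 CPM in p53 KO GCN2iB and 2.33 CPM in WT GCN2iB (log2 1.39), the filament protein VIM 8.21 CPM in p53 KO GCN2iB and 4.08 CPM in WT GCN2iB (log2 1.01) and the factor TWIST1 6.83 CPM in p53 KO GCN2iB and 15.4 CPM in WT GCN2iB (log2 -1.16). The immune and blood cell markers summed to 14 to 15.3 CPM in p53 KO GCN2iB and 19.3 to 23.8 CPM in WT GCN2iB, most of it VWF (12.1 CPM in p53 KO GCN2iB and 21 CPM in WT GCN2iB). Of 5 tested immune and blood cell markers 3 rose (LYZ, NKG7 and CSF1R) and VWF fell (80% called). With WT GCN2iB 4 left out 2 rose and 1 fell. Of 4 tested neuroendocrine markers SYP rose and ENO2 fell (50% called), and CHGB was at 0 in all 8 libraries. In bulk RNA fewer cells of a type and less RNA per cell cannot be told apart, and the part of these markers in the results was not tested.

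MHC class I genes moved both ways. Of 20 tested members 3 rose and 4 fell (35% called, against 23.9% of all tested genes). B2M, the light chain of the complex, averaged 334 ± 29.1 CPM in p53 KO GCN2iB and 209 ± 23.4 CPM in WT GCN2iB (log2 0.67, SE 0.074, adjusted p = 4.24e-07). HLA-C, a heavy chain, had log2 -0.43 and the loading factor TAPBP -0.40. HLA genes are alike in sequence and vary between alleles, so their counts are uncertain.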

How the data were processed

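RNA of 16 LNCaP samples was sequenced, 4 per group, and the report uses the 8 given GCN2iB, with the 8 given vehicle as the comparison. The authors deposited raw read counts per gene for 62754 genes, with no normalization. The tools named in the submitters' processing notes are Trim Galore, HISAT2, featureCounts and DESeq2, with the build GRCh38 and no versions. Neither annotation release nor strand setting is given in the sources used here, so overlapping and antisense genes cannot be told apart. Each column was matched to a sample by title, and identifiers to symbols (42343) and to GENCODE release 29 positions (58261).

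Models were fitted in edgeR 4.0.16 under R 4.3.3, with DESeq2 1.42.0 and limma 3.58.1 as alternatives. Summaries used pandas 2.3.3 (Python 3.11.15), and matplotlib 3.10.9 drew the figures. Totals were 17418072 to 39915685 counts per library. After the filterByExpr rule 18549 genes were tested with TMM scaling in 1 robust quasi-likelihood fit over the 4 groups, tested on simulated data. Contrasts were p53 KO against WT under GCN2iB, the same under vehicle, and their difference. Tests were two-sided, with Benjamini-Hochberg adjustment over all tested genes and a threshold of 0.05. The SE of a log2 fold change is its absolute value over the square root of the F statistic.

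The genotype comparison, the 30 gene lists and the naming rule were chosen with earlier results of these data known. The rule names a fixed set, the 10 largest rises and falls under GCN2iB (called, at least 5 CPM in the higher group, no overlap), genes called for the difference, and up to 4 members of each list with at least 25% called. The level of the targeted gene itself is not reported here. Promoters are RefSeq windows on GRCh38.p14, and 23 of 29 genes looked up had one. Alternatives were DESeq2 size factors, library totals, other filters, DESeq2, voom, the replicate block, only the 8 libraries compared, and each library left out.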

Additional observations from a re-analysis of the deposited data

Results flagged for a closer look

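SESN2 had a genotype difference that differed between treatments by log2 -0.74 (edgeR interaction test, adjusted p = 0.00142), lower in 4 of 4 p53 KO GCN2iB libraries than in every WT GCN2iB library. Single libraries that stood far from the other libraries of their group were looked for in 310 sets of 4 values with Dixon's test at 95%, which flags about 1 in 20 by chance, and 20 were found (6.45%). WT GCN2iB 4 was the outlying library in 10 of them. It was the high one for KRT16 (1.80 CPM), KRT6A (1.09 CPM), IGFBP3 (30.1 CPM), AGR2 (38.5 CPM), IFIT3 (20.4 CPM), IFIT2 (37.2 CPM), RSAD2 (11.8 CPM) and OASL (64 CPM), and the low one for CDKN1A (375 CPM). It also stood out in its share of the distance to p53 KO, at 43.7% over genes higher in p53 KO vehicle, where p53 KO GCN2iB 4 stood out at -6.40%. These genes share the libraries, so the counts are not independent.

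p53 KO GCN2iB 4 stood apart for BTG1 (113 CPM), CHAC1 (4.28 CPM), GART (145 CPM), SLC7A6 (13.4 CPM) and ACAT2 (66.9 CPM). p53 KO GCN2iB 2 did so for IFIT1 (76.9 CPM). Under vehicle p53 KO Vehicle 4 stood apart for CDKN1A (43.1 CPM), WT Vehicle 1 for SESN2 (45.8 CPM) and WT Vehicle 3 for SLC7A5 (16 CPM).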

How the results depend on the processing

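The count of genes called under GCN2iB stayed within 1.5 times in every setting, from 3308 to 5775, and leaving out 1 library gave 3308 to 4857. Fitted on the 8 GCN2iB libraries alone it was 4048. Under vehicle leaving out 1 library gave 3140 to 4595. The count for the difference depended on the setting: 61 with the replicate block, 38 with DESeq2, 2 with DESeq2 size factors, 4 with library totals, 47 with no filter beyond 1 count, 6 with a mean of at least 50 counts, 1 with limma voom. Leaving out 1 library gave 1 to 34: 2 without WT Vehicle replicate 3, 2 without p53 KO Vehicle replicate 4, 34 without WT GCN2iB replicate 1, 2 without WT GCN2iB replicate 3, 5 without WT GCN2iB replicate 4, 10 without p53 KO GCN2iB replicate 4. Genes with a larger genotype difference under GCN2iB numbered 40 with the replicate block, 26 with DESeq2, 2 with DESeq2 size factors, 1 with library totals, 38 with no filter beyond 1 count, 2 with a mean of at least 50 counts, 1 with limma voom, and 1 to 25 with 1 library left out. Genes with a smaller one numbered 21 with the replicate block, 12 with DESeq2, 0 with DESeq2 size factors, 3 with library totals, 9 with no filter beyond 1 count, 4 with a mean of at least 50 counts, 0 with limma voom, and 0 to 9 with 1 library left out. SESN2 was called for the difference in all of these. The cause of these shifts was not tested. Of 24 same-number pairs of libraries 5 had residuals correlated above 0.1. Of these, 4 were among the libraries numbered 4 (r = 0.14 to 0.29) and 1 between WT Vehicle 1 and p53 KO Vehicle 1 (r = 0.25). The median r was 0.037 for pairs of the same number and -0.011 for pairs of other numbers. These values do not settle whether the numbers pair the samples, and the main fit left pairing out. The replicate block called 5775 genes under GCN2iB and 61 for the difference. The share of the distance covered by WT GCN2iB 4 moved to 24.3% and 21% on the CPM scale.

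Over the settings 130 called genes named in the text were followed, LYZ, NKG7, CSF1R, SYP, ENO2 and PCDH11Y not among them. Of the 130, 0 changed sign under GCN2iB in any setting. The call was lost by 10 in at least 1 setting, 5 of them without WT GCN2iB 4. Uncalled genes near 0 changed sign: PPAT had log2 -0.00049 (replicate block), -0.013 (DESeq2 Wald test), -0.014 (DESeq2 size factors), -0.019 (no filter beyond 1 count), -0.011 (mean of at least 50 counts), -0.0045 (limma voom), -0.016 (only the 8 GCN2iB libraries), and with 1 library left out -0.079 to 0.059, and ASNS -0.17 to 0.073, EIF2AK4 -0.0055 to 0.15, PAICS -0.019 to 0.036 and MKI67 -0.18 to 0.091. Scaling by library totals or DESeq2 size factors gave a median over all genes of log2 0.043 and 0.0073. With 4 libraries a group, genes under 1 CPM rest on few counts.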

Other observations

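Lipid genes differed in both directions in p53 KO under GCN2iB. FASN, fatty acid synthase, had 2409.6, 2318, 2246 and 2349 CPM in p53 KO GCN2iB and 2928, 3281, 3102 and 2938 CPM in WT GCN2iB (log2 -0.39, SE 0.065, adjusted p = 9.57e-05), with log2 -0.0018 under vehicle and an unadjusted p of 2.98e-04 for the difference (adjusted p = 0.238). Of 21 fatty acid genes 7 rose and 6 fell (61.9% called, against 23.9% of all tested genes). The falls in ACSL1 (log2 -0.53) and SREBF1 (log2 -0.42) were among them, and FADS1, a desaturase, rose (log2 0.34). Of 24 cholesterol genes 5 rose and 2 fell (29.2% called; 23.9% of all tested genes were called). ACAT2, which condenses acetyl-CoA for that pathway, had log2 0.41 under GCN2iB and 0.072 under vehicle (unadjusted p of the difference = 0.00370, adjusted p = 0.334).

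The shares called in these lists stand beside 23.9% over all tested genes. Of 22 NRF2 targets 7 rose and 1 fell (36.4% called), and HMOX1, heme oxygenase, was 1.76-fold higher (log2 0.82, SE 0.13, adjusted p = 6.11e-05). Of 13 mitochondrially encoded mRNAs 7 rose and 0 fell (53.8% called), MT-ATP6 with log2 0.49. Mitochondrial genes held 3.59% to 4.30% of the counts in p53 KO GCN2iB and 3.12% to 3.93% in WT GCN2iB. Of 30 ribosome biogenesis genes 6 rose and 5 fell (36.7% called). With WT GCN2iB 4 left out 3 rose and 4 fell, in a fit that called 21.3% of all tested genes. With all 8 libraries MYC, the growth regulator of this list, was lower (log2 -0.56, SE 0.057, adjusted p = 1.19e-07). Of 35 autophagy and lysosome genes 6 rose and 4 fell (28.6% called), of 18 eIF2 kinases and regulators 3 rose and 2 fell (27.8% called), and of 11 genes of the insulin-like growth factor axis 2 rose and 2 fell (36.4% called).

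By position, calls under GCN2iB were uneven over the chromosomes. On chromosome 6 192 of 889 tested genes were lower (21.6%) and 97 higher (10.9%), with a median of log2 -0.076 under GCN2iB and -0.13 under vehicle. On chromosome 1 18.5% were higher and 10.0% lower, on chromosome 3 17.5% and 7.88%, and on chromosome 13 6.80% and 17.7%. Protein-coding genes were called in 27.5% of 13439 and other annotated types in 14.8% of 4247. Among genes averaging under 1 CPM in the 8 libraries 12.6% were called, with a median size of log2 1.32, and among those of 50 CPM or more 26.2%, with a median size of 0.27.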
